A study of Mus musculus with 2 samples.

Results

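The regions described here are runs of neighbouring H3K27ac peak summits in colonic macrophages of control mice. A summit is the 1 bp position of a peak in the list deposited for a library. The members were chosen by their positions in the WT list alone: WT summits on chromosomes 1 to 19 and X were joined when the next one lay at most 12.5 kb away, and every run of 3 or more summits was kept as a cluster. This gave 196 clusters that hold 652 of the 10460 WT summits on these chromosomes. A further 2160 WT summits lay in 1080 pairs and 7648 were alone. The study has 2 libraries of the H3K27ac CUT&Tag assay, in which an antibody guides a transposase to marked chromatin. Both came from male C57BL/6 mice, 11.1 weeks old, and from sorted colonic macrophages (Siglec-F negative, Ly6C low, CD64 positive) pooled from 4 mice. The WT library carries Lyz2-Cre and the Tle4cKO library Tle4f/f Lyz2-Cre, so both genotypes express the Cre recombinase. Lyz2 drives Cre in myeloid cells in general, so the deletion is not limited to macrophages. The Tle4cKO list holds 2341 summits on the same chromosomes. Each genotype has 1 library. Differences between them therefore carry no test and no replicate check, and depth is unknown.

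Acetylation of lysine 27 of histone H3 marks active promoters and enhancers. Enhancers of cell identity genes often lie in runs of marked elements, and joining marked elements over a distance of this size is the usual first step in the search for super-enhancers. That search also ranks runs by signal, which the deposited lists do not hold, so the runs are called clusters here. Tle4 belongs to the Groucho family of corepressors, which bind no DNA themselves and act through partner transcription factors.

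Some clusters run over the starts of several genes, and promoter sequences beside clustered summits are given here as examples. The RefSeq promoter table (GRCm38.p6, the assembly of mm10) covers 17274 of 21631 protein-coding genes on these chromosomes. A clustered WT summit lay within 1 kb of a listed start of 145 genes, and inside the promoter window itself, which runs from 250 bases before the start to just after it, for 34. The 4 printed here lie in clusters described below, and none of their letters falls inside an annotated gene. Each run gives the 250 bases before the start, 5′ to 3′ on the strand of the gene, with capitals for matches to any of 8 motifs.
Atp6v0c, chr17:24169679-24169928 (-): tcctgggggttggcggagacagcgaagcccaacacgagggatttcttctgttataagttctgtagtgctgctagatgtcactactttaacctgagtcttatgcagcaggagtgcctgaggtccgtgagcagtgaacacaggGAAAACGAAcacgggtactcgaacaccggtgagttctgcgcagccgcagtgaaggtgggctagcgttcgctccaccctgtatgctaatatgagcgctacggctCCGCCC
Zbtb6, chr2:37430920-37431169 (-): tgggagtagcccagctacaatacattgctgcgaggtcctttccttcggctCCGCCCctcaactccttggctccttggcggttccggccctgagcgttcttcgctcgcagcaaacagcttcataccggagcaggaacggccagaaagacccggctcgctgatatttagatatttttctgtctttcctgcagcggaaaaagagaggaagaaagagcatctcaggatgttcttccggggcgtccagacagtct
Traf2, chr2:25546941-25547190 (-): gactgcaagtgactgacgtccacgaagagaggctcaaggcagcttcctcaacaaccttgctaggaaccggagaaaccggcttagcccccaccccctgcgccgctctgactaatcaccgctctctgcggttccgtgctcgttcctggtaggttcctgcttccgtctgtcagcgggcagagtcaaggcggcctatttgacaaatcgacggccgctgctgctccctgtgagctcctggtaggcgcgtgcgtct
Gm13290, chr4:88773584-88773833 (+): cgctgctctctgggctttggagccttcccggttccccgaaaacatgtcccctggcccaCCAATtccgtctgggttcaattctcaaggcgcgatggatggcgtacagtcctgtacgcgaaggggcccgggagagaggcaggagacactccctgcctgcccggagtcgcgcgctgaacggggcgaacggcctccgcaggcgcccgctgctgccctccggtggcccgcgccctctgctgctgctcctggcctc
Atp6v0c, a subunit of the lysosomal proton pump, had its summit 14 bases before this start, and its window holds a GC box (GGGCGG) and an IRF match (GAAANNGAA). The summits of Zbtb6 and Gm13290 lay 247 and 121 bases before the start. That of Traf2 lay 42 bases after it, outside the printed bases. The Zbtb6 window holds a GC box, that of Gm13290 a CCAAT box, and that of Traf2 none of the motifs. Both strands were searched and matches may overlap. Among 164 promoters with a clustered summit within 1 kb, 57.3% held a GC box, against 60.6% of 5035 promoters with any WT summit within 1 kb and 43.1% of all 21045. A CCAAT box was in 36.0%, 36.4% and 35.6% of these sets, an AP-1 match (TGANTCA) in 3.66%, 3.63% and 6.17%, and an IRF match in 5.49%, 6.43% and 6.90%. The ETS match with a PU.1 flank (GAGGAAGT) was in 8 of the 164, or 4.88%, against 2.64% and 2.25%. The CRE (TGACGTCA) was in 2.44% against 3.59% and 1.94%, the E-box (CACGTG) in 10.4% against 8.94% and 6.70%, and the C/EBP match (TTGCGCAA) in 0 of the 164, against 0.377% and 0.200%.

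Most clusters were small. Of the 196, 157 held 3 summits, 33 held 4, 2 held 5, 2 held 8, and 1 each held 11 and 12. The span from first to last summit had a median of 14.1 kb and ranged from 1.24 to 43.4 kb. Neighbouring summits of a cluster lay a median of 6.87 kb apart, and 54 of the 456 gaps were at most 1 kb. Every chromosome had clusters. The share of WT summits in clusters ranged from 3.48% on chromosome 5 to 10.9% on chromosome 19, where 11 clusters held 37 of 340 summits. Scores are the authors' value per peak, read here as a −log10 value, and rank summits within 1 list only. The median score was 4.21 in clusters and 4.50 outside them. These numbers describe what the joining distance selected. The runs nearest to it were alike on both sides. Clusters over Rubcnl, Srgap3 and the interferon-inducible GTPase genes Tgtp2 and Ifi47 were kept with a largest gap of 12.48, 12.47 and 12.44 kb, and had a highest score of 4.50, 6.24 and 3.99. Runs over Gabpb2 to Gm128, over Lrrc8d and at a place on chromosome 3 without a gene missed by gaps of 12.52, 12.53 and 12.54 kb, with a highest score of 6.31, 5.21 and 7.11. None of these 6 runs held a Tle4cKO summit.

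Clustered summits lay less at gene ends than other WT summits. A gene end is here a place within 1 kb of the first or last base of a protein-coding gene, since the gene table gives no strand. Of the 652 clustered summits, 171 (26.2%, exact 95% interval 22.9 to 29.8%) lay at a gene end, against 42.7% (41.7 to 43.6%) of the 9808 others and 41.6% of all WT summits. The share was 44.5% for lone summits and 36.25% for pairs. Gene bodies held 37.1% of clustered and 34.5% of other summits, and places between genes 36.7% and 22.9%. Intervals (Clopper-Pearson) take in counting error alone, and summits of 1 cluster share their place, so they are not independent. Of the clusters, 97 had no gene-end summit, 46 had 1, and in 9 every summit was one.

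**Figure D1:**
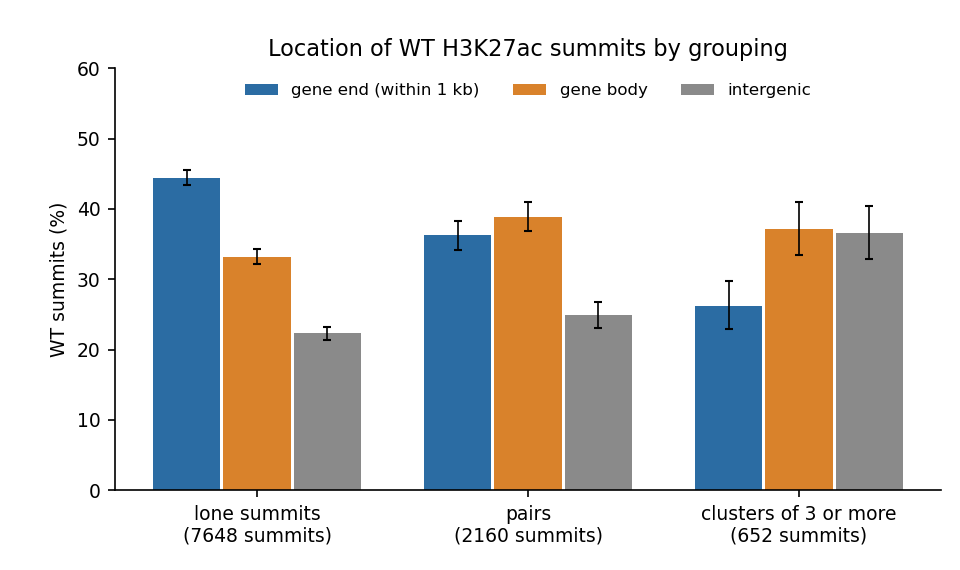
Share of WT summits (%, y axis) at gene ends, in gene bodies and between genes, for lone summits, pairs and clusters of 3 or more (x axis). Bars give shares and whiskers exact 95% intervals. The gene-end share is 44.5% for lone summits and 26.2% in clusters.

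In all, 147 of the 196 clusters (75.0%, 68.3 to 80.9%) overlapped a protein-coding gene between their first and last summit, against 69.8% of all 8924 WT runs, lone summits included, and 77.4% of pairs. Together they overlapped 230 genes, 1.06% of the 21631. A single gene was overlapped by 93 clusters, 2 genes by 42, and 3 or more by 12. Of the 93, 53 lay wholly within their gene and 46 had no summit at a gene end. These genes had a median length of 52.9 kb, against 17.3 kb over all protein-coding genes. Long genes can hold more summits, and the share of clusters over genes was not set against gene length. Clusters over 3 or more genes held gene-end summits in 37 of 47 cases (78.7%).

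The next question was how many of these summits were also called without Tle4. Of the 652 clustered WT summits, 99 (15.2%, 12.52 to 18.2%) had a Tle4cKO summit within 500 bp, called a partner below. The background over all WT summits was 17.9%, and 18.1% of the 9808 summits outside clusters had a partner. The clusters' share thus lay near the background, with an interval that takes it in. Partners lay a median of 57 bp away. Between their first and last WT summit, the clusters held 82 Tle4cKO summits, 3.5% of that list. Of the 196 clusters, 145 held none, 37 held 1, 8 held 2, 4 held 3, and 1 each held 5 and 12. A Tle4cKO summit thus lay inside 51 clusters (26.02%, 20.03 to 32.8%), against 15.9% of the WT pairs, whose spans are shorter. Per 10 kb of span there were 0.281 Tle4cKO summits in clusters and 0.274 in pairs, and 0.219 in clusters without the 3 gene-free ones named in the next paragraph. A partner may also lie just outside the first or last summit, and 65 clusters (33.2%) had at least 1 WT summit with a partner.

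Sharing was uneven across clusters. The 6 clusters of 5 or more summits had partners for 22 of 49 summits (44.9%, 30.7 to 59.8%), those of 4 for 19 of 132 (14.4%) and those of 3 for 58 of 471 (12.3%, 9.48 to 15.6%). Of the 99 summits with a partner, 20 lay in 3 clusters without a gene. These were the 2 with over 10 summits, on chromosomes 6 and 9, and 1 more with a score over 100, on chromosome 2. Without them 79 of 626 clustered summits (12.6%, 10.1 to 15.5%) had a partner, an interval below the 18.1% of other summits. This exclusion was chosen after the values were seen. Keeping only clusters of 4 or more summits turned the direction, with 22.7% against 17.8% of the other WT summits, and without the same gene-free clusters the share was 15.2% (9.98 to 21.8%) of 158.

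**Figure D2:**
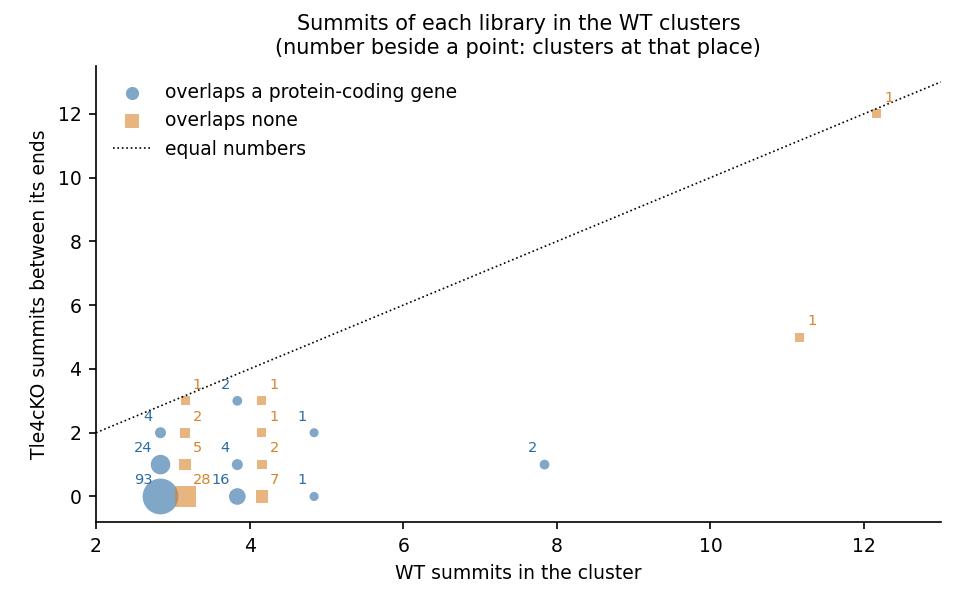
Number of WT summits (x axis) and of Tle4cKO summits between the first and last of them (y axis) for each of the 196 clusters, split by whether the cluster overlaps a protein-coding gene. Points of the 2 kinds are set slightly left and right of their whole number of WT summits, the number beside a point counts clusters there, and 145 clusters lie at 0 on the y axis.

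The WT score of a summit went with sharing inside clusters as outside. Clustered summits with a partner had a median WT score of 6.78 and those without one 3.95. When all WT summits were cut into 5 equal score classes, 4.11% of clustered summits in the lowest class and 46.4% (37.0 to 56.1%) in the top class had a partner, against 5.76% and 44.0% of other summits. In the next class up the shares were 4.05% (1.502 to 8.61%) and 9.16% (7.91 to 10.5%), then 11.3% and 11.8%, and then 17.7% and 19.3%. Without the 3 clusters named above, the top class fell to 37.1% (27.1 to 48.0%). Within a cluster, the summit with the highest score had a partner in 20.9% of 196 cases, the next in 12.8%, and all lower ones in 12.7% of 260. Where a single summit of a cluster had a partner, it was the one with the highest score in 27 of 48 clusters.

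**Figure D3:**
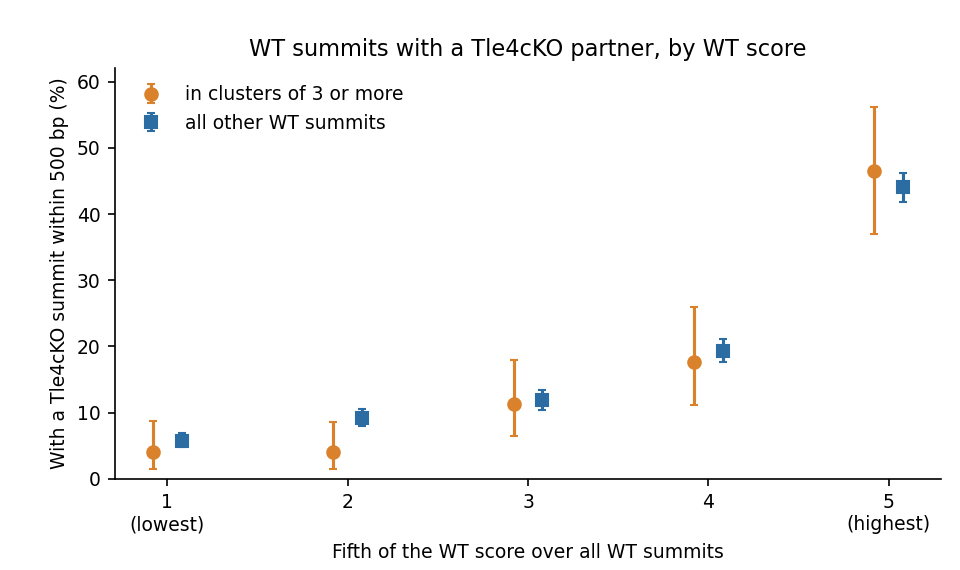
Share of WT summits with a Tle4cKO summit within 500 bp (%, y axis) in 5 equal classes of the WT score (x axis), for clustered and all other WT summits. Points give shares and whiskers exact 95% intervals. Intervals of clustered and other summits meet in every class, and the share is highest in the top class for both.

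By location, the difference from other summits lay at gene ends. Of the 171 clustered gene-end summits, 17 had a partner (9.94%, 5.90 to 15.4%), against 23.1% (21.8 to 24.4%) of the 4184 other gene-end summits. Leaving out the 8 summits around Ifnz, at genes that may be near-identical copies, gave 10.4% (6.19 to 16.2%) of 163. Their median WT score was also lower, 4.30 against 5.09. Among gene-end summits of the lower 3 score classes, 4.50% (1.48 to 10.2%) of 111 clustered and 10.9% (9.58 to 12.3%) of 2036 others had a partner. In the upper 2 classes, the shares were 20% (10.8 to 32.3%) of 60 and 34.6% (32.6 to 36.6%) of 2148. The intervals did not overlap in the upper classes and met in the lower ones. These classes do not hold the score equal. The median WT score of clustered gene-end summits was 6.43 in the upper classes, against 6.93 for others. In the lower classes it was 3.54 against 3.74. Whether the difference at gene ends is separate from score was not tested. In gene bodies 13.2% of 242 clustered and 14.4% of 3380 other summits had a partner, and between genes 20.9% of 239 and 14.4% of 2244. Without the same 3 clusters, the last pair was 14.1% of 213 against 14.4%. These splits were chosen after the values were seen.

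The clusters with most summits overlapped no protein-coding gene. The one at the start of chromosome 9 (3000322 to 3038020) held 12 WT and 12 Tle4cKO summits, and 11 of the WT summits had a partner. WT scores there ran from 8.46 to 112 and Tle4cKO scores from 2.89 to 97.1. The nearest protein-coding gene lay 297 kb away. The cluster on chromosome 2 from 98662692 to 98666817 had 3 summits with WT scores of 56.2, 34.1 and 252 and Tle4cKO scores of 61.8, 37.3 and 266, at most 7 bp apart. The cluster on chromosome 10 from 3110168 to 3113707 had 4 WT summits, with scores of 7.08, 5.34, 14.2 and 21.4, and each had a partner. Their high scores stand in both lists. No list of repeats or high-signal regions was used, and the part of repeats was not tested. Among gene-free clusters of 4 summits, one on chromosome 2 (116914279 to 116942737), next by highest WT score after those on chromosomes 10 and 12, had WT scores of 3.13, 2.43, 4.54 and 7.30 and no Tle4cKO summit.

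Small RNA genes lay under other gene-free clusters. The one on chromosome 6 from 47745227 to 47788663 held 11 WT summits with scores from 3.63 to 19.9, and 6 of them had a partner. It spans Rny1 and Rny3, which encode Y RNAs, small RNAs of the Ro ribonucleoprotein. Its summit at Rny1 (4.54, no partner) was the only one of the 11 within 500 bp of a small RNA gene. On chromosome 12 (54710729 to 54738795) all 4 summits, with scores of 7.23, 14.3, 10.7 and 2.55, lay within 500 bp of annotated snRNA genes. The 2 middle ones had partners with scores of 6.20 and 4.45. Another, on chromosome 11, lies at Rnu2-10, a gene of the U2 spliceosomal RNA, and had WT scores of 6.14, 5.65 and 9.63, the last 2 with a partner. In all, 13 clustered summits (1.99%, 1.066 to 3.39%) lay within 500 bp of a small RNA gene, against 1.01% of all WT summits, and 7 of the 13 came from the clusters on chromosomes 11 and 12. Such genes come in near-identical copies, so their reads cannot be placed with certainty. Of the 49 clusters over no protein-coding gene, 18 had one within 10 kb and 14 had none within 50 kb.

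Among clusters over genes, Mid1 and the Ifnz run held most summits, 8 each. Mid1, a ubiquitin ligase gene on the X chromosome at the border of the pseudoautosomal region, had WT scores of 5.09, 4.32, 7.16, 10.7, 4.94, 4.55, 2.84 and 27.9 (169973201 to 170005543). The highest summit and that of 10.7 had Tle4cKO partners, with scores of 22.7 and 7.77, and both lay beyond the outer end of the gene. The highest lay at percentile 99.5 of the WT list. Whether reads there are shared with repeats or with the Y chromosome was not tested. The run on chromosome 4 from 88773713 to 88805623 spans 12 genes, Ifnz, a type I interferon gene, and 11 genes with Gm names. Its WT scores were 2.36, 4.76, 7.02, 3.13, 2.86, 4.12, 7.81 and 4.05. All 8 summits lay at gene ends of the Gm genes and none at the ends of Ifnz. The single Tle4cKO summit there (2.31) lay over 500 bp from each. Gaps between these summits ranged from 2791 to 11561 bp. The genes of this run may be near-identical copies that share reads, so the place of each summit is uncertain.

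P2ry6, a receptor for extracellular UDP on macrophages, had 5 summits over the gene (chromosome 7, 100944246 to 100976422). WT scores were 2.15, 6.86, 1.81, 3.60 and 14.1. The last, at a gene end, and that of 6.86 had partners in Tle4cKO with scores of 12.49 and 4.91, 16 and 10 bp away. The 2 highest WT summits were thus the shared ones. The other cluster of 5 (chromosome 4, 58553138 to 58586435) touches Lpar1, a receptor for lysophosphatidic acid, with its first summit only, and the rest lie beyond the gene. Their scores were 4.80, 2.67, 4.09, 5.32 and 6.11. A Tle4cKO partner (3.27) was called 79 bp from the first alone, which is not the highest.

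**Figure D4:**
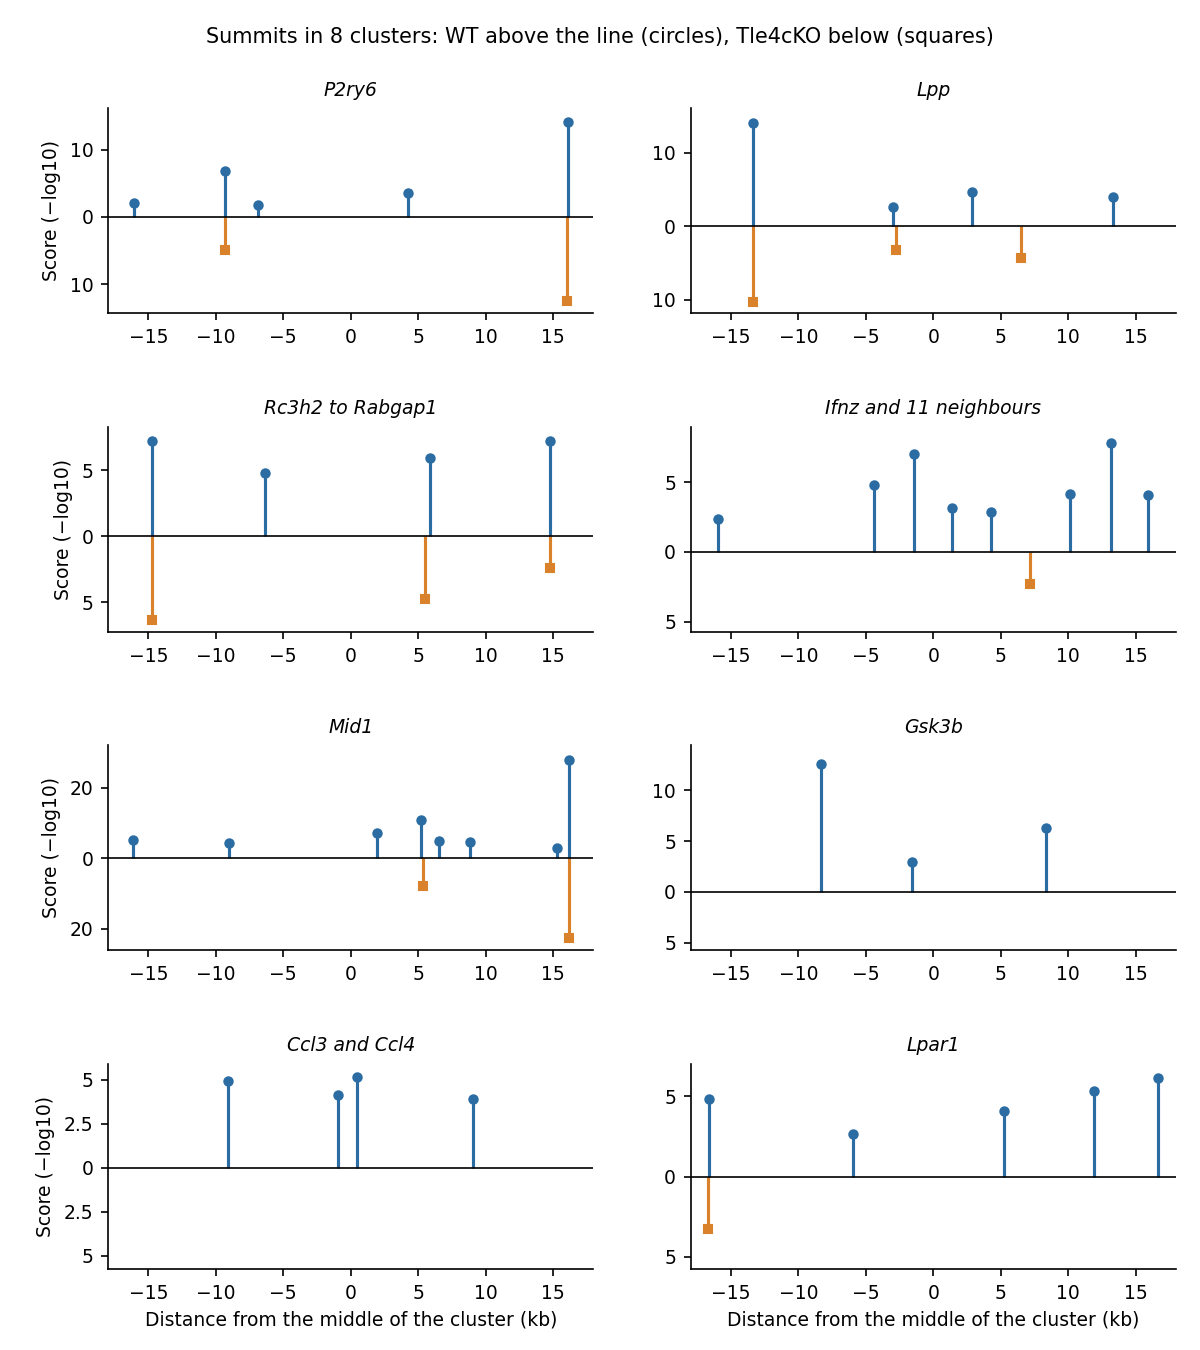
Scores of WT summits (upwards, circles) and Tle4cKO summits (downwards, squares) by distance from the middle of the cluster (x axis, kb) in 8 clusters. Scores (y axis, as deposited and read here as −log10) rank summits within a library and are not comparable between libraries. P2ry6 and Lpp share their highest summit, while the Gsk3b cluster and that of Ccl3 and Ccl4 have WT summits alone.

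Few clusters over genes kept several summits in Tle4cKO. Lpp, a LIM protein of cell adhesions, had 4 WT summits within the gene (chromosome 16, 24583542 to 24610260), scoring 13.99, 2.57, 4.65 and 3.95. Tle4cKO had 3, scoring 10.3, 3.18 and 4.35, of which the first 2 were partners. It is the only one of 147 gene-overlapping WT clusters that a Tle4cKO cluster of 3 or more overlapped. The Tle4cKO list, with 2341 summits against 10460, formed few such clusters. The others lay over gene-free WT clusters on chromosomes 2, 6, 9 and 10 or, as at Sfi1, over no WT cluster. The cluster from Rc3h2 to Rabgap1 (chromosome 2, 37422769 to 37452306) had WT scores of 7.23, 4.83, 5.92 and 7.20. All but the second, at the Zbtb6 promoter printed above, had a partner, with scores of 6.29, 4.77 and 2.40. Rc3h2 encodes a Roquin protein that promotes mRNA decay. Specc1l, a cytoskeletal protein gene, had WT scores of 5.65, 6.85 and 8.16 and Tle4cKO scores of 2.84 and 12.7 at the outer 2. Rbm39, a splicing factor gene, and Phf20 shared a cluster with WT scores of 5.86, 7.60 and 7.01. Its outer 2 summits, at the end of each gene, had partners of 5.51 and 4.68, and the middle one between the genes had none.

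Clusters with 1 Tle4cKO summit inside were many, and those of Tmem267 and of Sp110 and Sp140 are named for the score of that summit. The body of Tmem267 held WT scores of 7.26, 30.6 and 25.1, and Tle4cKO scores of 31.5 and 27.9 stood 11 and 6 bp from the last 2. Those 2 WT scores lay at percentiles 99.5 and 99.4 of the WT list. The part of repeats was not tested here either. The nuclear body genes Sp110 and Sp140 overlap, and their cluster had WT scores of 8.37, 13.4 and 8.35 with 1 partner (7.76). The cluster at A530032D15Rik, with its first summit in the gene, had WT scores of 6.78, 5.86 and 5.45 and partners of 10.1 and 2.17. Sp110, Sp140 and A530032D15Rik lie in a region of copied genes, and reads may be shared among them. At Man1a2, a Golgi mannosidase gene, WT scores were 3.45, 5.94 and 5.09, and the Tle4cKO summits inside scored 3.73 and 1.996. The second of these was a partner of the middle WT summit, and the first lay over 500 bp from each.

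Several clusters with high WT scores held no Tle4cKO summit. Gsk3b, the kinase that marks beta-catenin for degradation, had WT scores of 12.6 at its end and 2.99 and 6.29 in its body (chromosome 16, 38089052 to 38105716). Tcf4, a basic helix-loop-helix factor known from plasmacytoid dendritic cells, had 4.48, 4.05 and 12.53, all in its body. Smdt1, a regulator of the mitochondrial calcium uniporter, and Ndufa6, a subunit of respiratory complex I, shared a cluster with 10.2 and 7.71 at their ends and 6.27 and 3.70 beyond. Ndufc1, another complex I gene, and Naa15, a subunit of the N-terminal acetyltransferase, had 10.1, 7.43 and 7.74. The cluster of Amdhd2 and Atp6v0c had 4.36, 5.79 and 9.87, and that of Entpd7 had 2.63, 3.82 and 9.46. In the Entpd7 cluster, the 2.63 summit lay at an end of Slc25a28 and the 9.46 summit at an end of Entpd7. At the border of Gm46608 and Qk, an RNA-binding protein gene, the scores were 6.34, 2.62 and 8.45. None of the summits of these 7 clusters had a partner within 500 bp. In 3 more, a partner lay just beyond the outermost summit. They are those of Ubxn2a and Atad2b (WT 10.2, 3.49 and 4.86), of Qars and Qrich1 (4.42, 9.77 and 2.04) and of Fam234a and Luc7l (2.63, 6.74 and 8.78), with Tle4cKO scores of 4.75, 4.63 and 6.44.

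Of the 12 clusters over 3 or more genes, 3 lay side by side on chromosome 19. The cluster from Nxf1, the main mRNA exporter, to Taf6l had WT scores of 7.08, 1.75, 2.71 and 2.67 (8757299 to 8786483) and no partner. The next one, from Ubxn1 to Ganab, had 4.18, 6.77, 2.60 and 4.84, all at gene ends, and 1 partner of 4.04. The last, from B3gat3 to Mta2, a subunit of the NuRD corepressor complex, had 2.54, 4.91, 2.12 and 5.40 and no partner. The 3 clusters lie within 8757299 to 8942220. Among clusters on other chromosomes, the one with Foxo4 and the cytokine receptor gene Il2rg had 5.35, 4.14 and 3.49 with 1 Tle4cKO partner of 2.34. Histone genes H3c15, H2ac19 and H2ac18 lay in a cluster with 8.18, 7.82 and 6.49 and no Tle4cKO summit. Histone genes come in near-identical copies, so these values are uncertain. Cdt1, a factor of replication licensing, and Aprt had 7.72, 3.18, 3.67 and 2.82, and a Tle4cKO summit of 3.64 lay beside the first. Cdk17 had 6.02, 6.72, 3.17 and 8.16, with a partner of 4.76 just past the last and a Tle4cKO summit of 1.67 inside that is no partner. Cystm1 had 1 of the 5 longest clusters over a gene, 30.1 kb, with scores of 1.99, 3.49, 3.07 and 2.87 and no partner.

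Immune and signalling genes were looked up in 12 lists, which were chosen with earlier results of these data known. Counts below are genes overlapped by a cluster, against 1.06% of all protein-coding genes. Scores given with a gene are those of its whole cluster, and some of these summits lie outside the gene. Genes with a WT summit inside them made up 25.6% of all genes, and clusters overlapped 3.63% of these 5534. Many lists are rich in such genes. A share of all matched genes compares with 1.06%, and a share of genes with a WT summit inside compares with 3.63%. Of 55 genes of NF-kB and Toll-like receptor signalling, 33 had a WT summit inside and 4 (7.27%, or 12.1% of the 33) lay in clusters. Rel, an NF-kB subunit, had WT scores of 3.53 and 3.04 at a gene end and 6.75 beyond. Tbk1, a kinase upstream of interferon genes, had 3.74 in its body, and the 5.65 and 3.28 of its cluster lay in the body of Xpot. Traf2, an adaptor of TNF receptors, had 3.49 and 4.45, the second at the promoter printed above. The 4.63 of its cluster lay at an end of Edf1. None of these 3 clusters had a Tle4cKO summit. Tlr1, a receptor for bacterial lipopeptides, had 7.29 and 4.12 beside the gene and 5.15 within it, with a Tle4cKO summit of 2.59 at the middle one.

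Of 56 cytokine, chemokine and receptor genes, 15 had a WT summit inside and 4 (7.14%, or 26.7% of the 15) lay in 2 clusters. Ccl3 and Ccl4, chemokines made by activated macrophages, shared one with scores of 4.94, 4.16, 5.16 and 3.89 (chromosome 11, 83630922 to 83649101). Only the last and lowest of these lay at the 2 genes, and the others lay between genes. Il10rb, a chain of the IL-10 receptor, and Ifnar2, a chain of the type I interferon receptor, shared another with 4.89, 3.08 and 3.32. Neither had a Tle4cKO summit. Of 52 matched genes of interferons and their response, 12 (without Ifnz) had a WT summit inside and 3 (5.77%) lay in clusters. Besides Ifnz these were Gbp3, a guanylate-binding protein gene (3.08, 2.70 and 3.56, with a Tle4cKO summit of 2.94 beside the first), and Parp14 (3.62, 2.97 and 3.16, none). Of 63 macrophage transcription factor genes, 36 had a WT summit inside and 3 (4.76%, or 8.33% of the 36) lay in clusters. Irf4, an interferon regulatory factor, had scores of 2.62, 5.15 and 2.78. Maff, a small Maf factor, had 2.60, 2.08 and 4.23. Nr1h3, the sterol-sensing nuclear receptor LXR alpha, shared with Madd a cluster of 5.30, 3.99 and 3.85. Of 26 AP-1 and immediate early genes, 6 had a WT summit inside and 1 lay in a cluster. It was Junb, beside Prdx2, with 6.52, 3.02 and 3.51, none within Junb itself. None of these 4 clusters held a Tle4cKO summit.

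**Figure D5:**
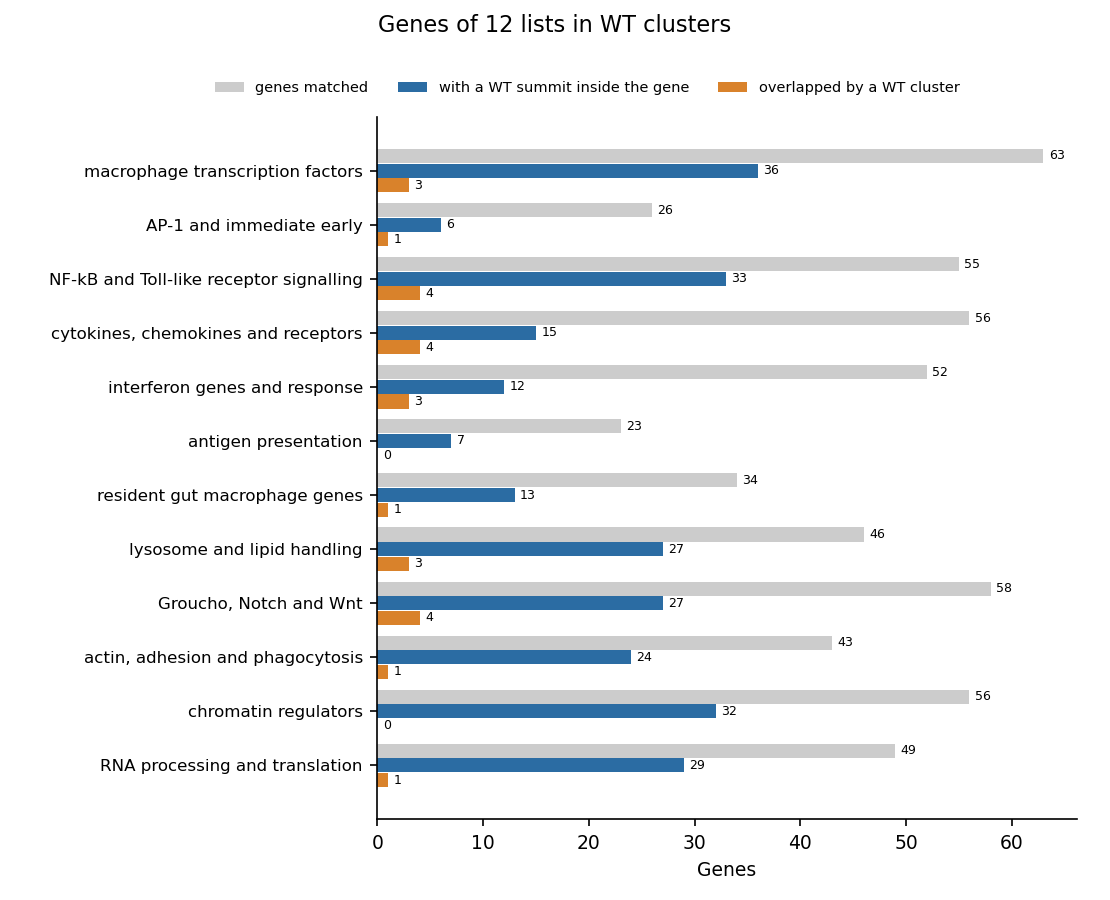
Number of genes (x axis) in each of 12 lists (y axis) that were matched to the gene table, had a WT summit inside the gene, or were overlapped by a WT cluster. A cluster can span a gene that has no summit inside. Between 0 and 4 genes of each list lay in clusters.

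Of 46 lysosome and lipid handling genes, 27 had a WT summit inside and 3 (6.52%, or 11.1% of the 27) lay in clusters. Soat1, which esterifies cholesterol, had 4 summits within its body, scoring 3.40, 4.30, 3.16 and 2.61. The nuclear receptor coactivator genes Ncoa2 and Ncoa3 had 4.05, 3.32 and 2.78, and 2.64, 3.13 and 2.90. Of 58 Groucho, Notch and Wnt genes, 27 had a WT summit inside and 4 (6.90%, or 14.8% of the 27) lay in clusters. None was a Tle gene. Besides Gsk3b they were Psen2, a catalytic subunit of gamma-secretase (4.98, 2.38 and 3.61), Adam10, a protease that cleaves Notch (4.21, 6.77 and 7.08), and Apc, a scaffold of the beta-catenin destruction complex (5.51, 4.10 and 3.46). Psen2 alone of the 4 had a Tle4cKO summit (3.46). Hpgds, the prostaglandin D synthase of blood cells, was the one of 34 resident gut macrophage genes (3.50, 3.26 and 2.46). It made up 7.69% of the 13 with a WT summit inside. Wasf2, an actin regulator, was the one of 43 actin, adhesion and phagocytosis genes (4.26, 5.15, 4.27 and 4.90). It made up 4.17% of the 24 with a WT summit inside. Of 49 matched RNA processing and translation genes, 29 had a WT summit inside and Rbm39 alone (3.45% of the 29) lay in a cluster. No antigen presentation gene (0 of 23) and no gene of the chromatin regulator list (0 of 56, of which 32 had a WT summit inside) did, though genes outside that list, such as Mta2 above, also act on chromatin. Counts this low do not set one list apart from another.

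Markers of cell types were checked the same way. Of 22 macrophage markers, 9 had a WT summit inside the gene and 1 lay in a cluster: Cd14, the co-receptor for lipopolysaccharide. Its cluster also spans Tmco6, Ndufa2 and Ik, with 5.73 at Cd14, 7.01 at Tmco6 and 5.11 at Ndufa2 and Ik, and has no Tle4cKO summit. No cluster overlapped a marker of epithelium (0 of 14), T cells (0 of 10), B cells (0 of 8), neutrophils (0 of 8), eosinophils (0 of 5), fibroblasts and muscle (0 of 10), endothelium (0 of 8) or glia and neurons (0 of 8). Of those, 4 endothelial and 1 neutrophil gene had a WT summit inside, and none of the others. Of 10 dendritic cell markers, 3 had a WT summit inside and Tcf4 lay in a cluster.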

How the data were processed

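H3K27ac CUT&Tag was measured in 1 WT and 1 Tle4cKO library. For each library the authors deposited peak summits with a score, read here as a −log10 p- or q-value because no score falls under 1.30, which is −log10 of 0.05. Per the submitters' processing notes, cutadapt 1.14, Bowtie2 2.2.5 and build mm10 were used. The sources used here do not name the peak caller, its settings or any control. Such scores grow with depth, which is unknown, and a summit that was not called may still carry signal. Gene bounds came from RefSeq (GRCm38.p6). Summits on chromosomes 1 to 19 and X were used, with no filter. Runs, shares and exact 95% intervals were computed with Python 3.11.15, pandas 2.3.3 and scipy 1.17.1, and figures with matplotlib 3.10.9. The joining and partner steps were run on simulated lists, where 357 of 357 planted clusters and 417 of 417 planted partners were found. Planted runs lay well apart, with no gap just over the joining distance. Every Tle4cKO summit was planted near a clustered WT summit. Borderline gaps and Tle4cKO summits without a WT summit nearby were therefore not tested. Members, gene lists and tests were chosen with earlier results of these data known. Clusters were named by rank: most WT summits (10 over genes, 5 over none) and, among clusters over genes, most Tle4cKO summits (10), highest WT score without a Tle4cKO summit inside (10) and longest span (5), and every cluster over a listed gene. Ties in the numbers of WT and Tle4cKO summits were broken by the highest score of that library. Other clusters were named after their values were seen, as examples of small RNA genes, gene-dense runs and high scores. Up to 6 promoters with a clustered summit, by WT score and 1 per cluster, were to be shown; those with letters in an annotated gene or on a chromosome whose sequence is not printed were left out. Alternatives were other joining distances, cluster sizes, score minimums, windows and list lengths.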

Additional observations from a re-analysis of the deposited data

Results flagged for a closer look

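The rule keeps to chromosomes 1 to 19 and X, so the Y and mitochondrial chromosomes enter no comparison. On the Y chromosome, 8 of the 14 WT summits formed 1 cluster, above the limit of 3 used for counts outside the comparisons, and 1 Tle4cKO cluster held 3 of 9 summits there. On the mitochondrial chromosome, which has no histones, there were 4 WT and 2 Tle4cKO summits.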

How the results depend on the processing

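Of 59 alternative values for 6 results, 25 moved little, and 34 moved by more than their interval or 1.5 times. The values in order are the number of clusters, the number of summits in them, the share of summits with a partner, and the shares of clusters with a Tle4cKO summit inside and over a gene, and the gene-end share of summits. Joining over 5 kb gave 28, 95, 32.6%, 39.3%, 57.1% and 22.1%. Joining over 25 kb gave 602 clusters, 2158 summits, 32.9% with a Tle4cKO summit inside, 86.2% over a gene and 32.8% at gene ends. Clusters of at least 4 summits gave 39, 181, 22.7%, 38.5% and 66.7%. A score of at least 5 in both lists gave 20, 76, 42.1%, 55%, 60% and 19.7%, and the top WT summits, as many as the Tle4cKO list holds, gave 10, 44, 65.9%, 80%, 40% and 11.4%. In these last 2 settings and at 5 kb and 4 summits, the share with a partner lay above that of other WT summits (12.98%, 42.0%, 17.8% and 17.8%), the opposite of the values reported. Without the 3 outlying gene-free clusters, a choice added after seeing the data, these shares were 25% of 52 summits, 47.6% of 21, 17.8% of 73 and 15.2% of 158, against 12.98%, 42.0%, 17.8% and 17.8% of the others, so the turn did not hold at 4 summits, and at 5 kb the shares were alike. The gene-end share lay below that of other WT summits in each alternative run. Counting genes within 10 kb raised the share over a gene to 84.2%, and a Tle4cKO summit lay within 1 kb of 34.7% of clusters. Gene ends of 500 bp and 2 kb gave 19.8% and 32.1%. Merging close summits, leaving out X, partners within 250 bp or 1 kb, and, added after seeing the data, the promoter table's starts and leaving out the 3 gene-free clusters moved little. No paired analysis was possible because each genotype has 1 library. Depth is unknown, so the lower number of Tle4cKO summits cannot be told apart from a shallower library.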
